A study of Mus musculus with 8 samples.

Results

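Mzb1, Gsdmd, H2-Q7 and H2-M2 are immune-related genes that were measured in the mouse submandibular gland, one of the paired glands that make saliva. They are 4 of the 46 genes that could be named on the arrays, because only 47 of 60823 probes carry a transcript accession. Each gene has 1 probe, printed as 10 spots. The genes were chosen from levels already seen on these arrays, above all on the second array of each group, so the levels and the distances between arrays are given as descriptions without tests. The Ctrl group was 4 samples from male mice on normal chow and the DIO (diet-induced obesity) group 4 samples from male mice on a high-fat diet, all at 20 weeks of age. The labels state no strain or genotype, and do not say whether a sample was a single animal or a pool. RNA freed of ribosomal RNA was labelled with Cy3 by random priming and hybridised to 1 one-colour array per sample.

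Mzb1 encodes a protein of the endoplasmic reticulum that helps B cells and plasma cells to assemble and secrete antibody. Salivary glands hold plasma cells that supply the immunoglobulin A of saliva. Gsdmd encodes gasdermin D, which inflammatory caspases cut so that its free end forms pores in the cell membrane, the step that ends a cell by pyroptosis. H2-Q7 and H2-M2 belong to the class I histocompatibility family, whose best-known members present peptides to T cells. H2-Q7 is one of the genes for the Qa-2 antigen, and H2-M2 lies in the M region of the same complex. Class I genes are so alike in sequence that a probe named for one may also bind others.

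The promoters of the class I pair are shown because their probes followed the same pattern over the arrays. Both are from RefSeq, build GRCm38.p6, and run from 250 bases before the start site to 50 after it, 5′ to 3′ in the direction of the gene. That of H2-Q7 is at chr17:35438905-35439204 on the plus strand and that of H2-M2 at chr17:37483505-37483804 on the minus strand. The table of promoters had no entry for Gsdmd or Mzb1. Capitals mark matches, on either strand, to 4 patterns that were picked after these promoters had been read: GGGNATTCC (the form of an NF-kappaB site), TTTCNCTTC (part of an interferon-stimulated response element), TGATGAC (the start of the class I element called site alpha) and CCAAT.
H2-Q7: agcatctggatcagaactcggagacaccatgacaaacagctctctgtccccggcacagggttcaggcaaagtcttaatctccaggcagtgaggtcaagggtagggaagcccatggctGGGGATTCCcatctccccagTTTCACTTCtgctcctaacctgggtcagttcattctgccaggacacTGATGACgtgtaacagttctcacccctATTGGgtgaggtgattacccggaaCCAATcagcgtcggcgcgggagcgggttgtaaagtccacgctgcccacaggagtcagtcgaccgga
H2-M2: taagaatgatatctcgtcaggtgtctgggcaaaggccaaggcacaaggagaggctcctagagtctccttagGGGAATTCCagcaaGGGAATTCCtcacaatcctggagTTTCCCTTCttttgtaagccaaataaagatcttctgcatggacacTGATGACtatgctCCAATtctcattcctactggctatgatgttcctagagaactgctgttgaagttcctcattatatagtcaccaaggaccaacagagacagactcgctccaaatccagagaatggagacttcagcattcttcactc

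Both promoters held the 4 patterns in the same order along the gene. Over 256 aligned positions the promoters shared 64.8% of their bases. Over the 15 other class I promoters compared, identity with that of H2-Q7 ran from 57.7% for H2-M10.1 to 97.7% for its neighbour H2-Q6, and H2-T3 (65.9%) and H2-M3 (68.2%) were also above H2-M2. Among 32841 promoter entries of the same length, 0.776% held GGGNATTCC, 2.44% TTTCNCTTC, 3.23% TGATGAC and 37.4% CCAAT. All 4 patterns were found together in 4 entries, those of H2-D1, H2-M2, H2-Q6 and H2-Q7. Since the patterns were picked after the promoters of H2-Q7 and H2-M2 had been read, their presence and rarity in this pair are no test. Of the 16 class I genes of the list with an entry, 5 held GGGNATTCC, 8 held TTTCNCTTC, 7 held TGATGAC and 13 held CCAAT. A match describes the letters and does not show that a factor binds there.

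The 75th percentile of the processed signal lay between 239.8 and 321 on the 8 arrays, and 81.2% to 91.2% of spots were well above background, as marked by the scanner software. All 320 spots of the 4 genes were well above background and none was saturated, and 10 that the software marked as outliers were left out. Each level is the log2 processed signal minus the log2 of that percentile, averaged over the spots of a probe, so a level of 0 is a signal at the percentile itself. The number of arrays limits the precision. No marker on the lists for acinar cells (11 genes) or duct cells (12 genes) could be named on the arrays, so the tissue label was not checked against its own markers. In whole tissue, more cells of a type and more RNA per cell cannot be told apart. Each level is also that of a probe of unknown binding efficiency, so no gene is compared with another in level.

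Mzb1 was measured at log2 levels of -1.10, 2.62, -1.09 and -1.05 on Ctrl arrays 1 to 4. On DIO arrays 1 to 4 it was measured at 0.91, -1.25, 1.15 and 0.82. Ctrl array 2 was thus high among low Ctrl arrays and DIO array 2 low among higher DIO arrays, and the groups overlapped. As processed signal, Mzb1 read 1681 on Ctrl array 2, between 124 and 155 on the other Ctrl arrays, 115 on DIO array 2 and between 452 and 609 on the other DIO arrays.

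The spots of the Mzb1 probe gave nearly the same value within an array. Their SD had a median of 0.04 over the arrays. It covers the repeat of a measurement on 1 array and not the variation between samples. On Ctrl array 2 the lowest Mzb1 spot stood at 2.60, above the highest spot of the other Ctrl arrays at -0.91. On DIO array 2 the highest spot stood at -1.14, below the lowest spot of the other DIO arrays at 0.74. The pattern was present in the raw signal, where the median spot was 74.1 times its local background on Ctrl array 2 and 6.53 to 8.20 times on the other Ctrl arrays. The local background around the Mzb1 spots varied little, from 21.25 to 25. In the order of levels, the gaps between Ctrl arrays 4, 3 and 1 were within the SD of their spots, and the other gaps between neighbours were wider than it.

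**Figure D1:**
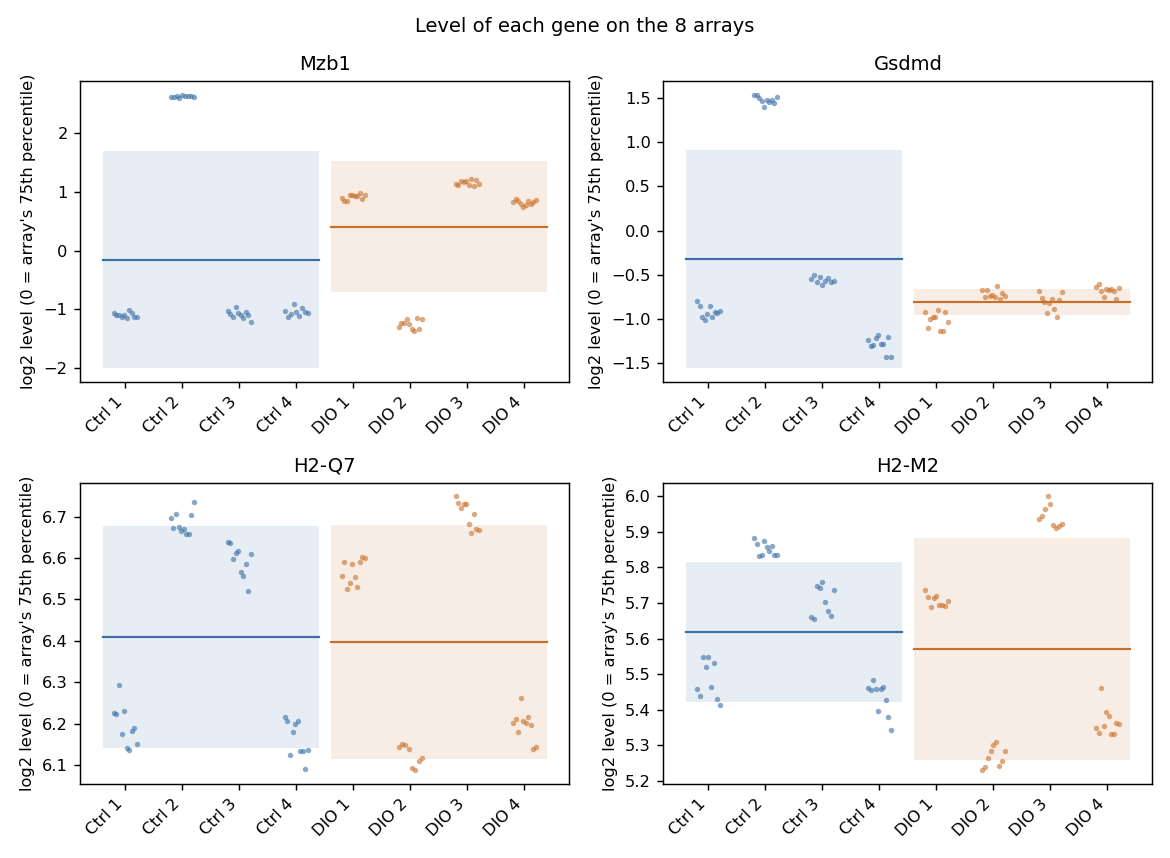
Log2 level of Mzb1, Gsdmd, H2-Q7 and H2-M2, scaled to each array's 75th percentile (vertical axis, a different range in each panel) on 4 Ctrl (blue) and 4 DIO (orange) arrays. Points are single spots, the line is the group mean and the band its SD over 4 arrays; Ctrl array 2 stands at 2.62 for Mzb1 and 1.48 for Gsdmd, while the class I probes split the arrays into the same upper and lower 4.

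Gsdmd was measured at -0.92, 1.48, -0.56 and -1.28 on Ctrl arrays 1 to 4, and at -1.01, -0.72, -0.81 and -0.68 on DIO arrays 1 to 4. A single Ctrl array was high, and all 4 DIO arrays lay within the Ctrl range. The processed signal was 761 on Ctrl array 2 and between 119 and 196 on the other 7 arrays. The Ctrl arrays spread by 1.23 and the DIO arrays by 0.15 (SD, n = 4 each). The lowest Gsdmd spot of Ctrl array 2, at 1.40, lay above the highest spot of the other Ctrl arrays at -0.50. Below Ctrl array 2 the arrays followed in small steps, and the gap between DIO arrays 4 and 2 was within the SD of their spots.

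H2-Q7 was measured at 6.19, 6.68, 6.59 and 6.16 on Ctrl arrays 1 to 4. On DIO arrays 1 to 4 it was measured at 6.57, 6.12, 6.71 and 6.20. Each group held a pair of high and a pair of low arrays, so the groups overlapped fully. The largest step in the order of levels was 0.37, between DIO array 1 and DIO array 4. Of the 7 steps between neighbours, 5 were within the larger spot SD of the arrays compared. Over the arrays the spot SD had a median of 0.03. Signals were bright, from 19103 to 28579, at 731 to 1253 times the local background.

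H2-M2 was measured at 5.48, 5.85, 5.70 and 5.43 on Ctrl arrays 1 to 4, and at 5.71, 5.27, 5.94 and 5.37 on DIO arrays 1 to 4. The same 4 arrays were the upper ones for both class I probes: DIO array 3, Ctrl array 2, Ctrl array 3 and DIO array 1. The H2-M2 signal ran from 10556 to 16850. The step between DIO array 1 and Ctrl array 3 was within the larger spot SD of the arrays compared, as was that between Ctrl arrays 1 and 4. Whether the H2-M2 probe also binds H2-Q7 or other class I transcripts was not tested, since probe sequences were not used here. The range over the 8 arrays was 1.50-fold for H2-Q7 and 1.60-fold for H2-M2, against 14.7-fold for Mzb1 and 6.78-fold for Gsdmd.

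On Ctrl array 2 all 4 genes lay above the mean of the other Ctrl arrays, but by very unequal amounts. The distance was 3.70 for Mzb1 (13.0-fold) and 2.40 for Gsdmd (5.27-fold), and 0.37 for H2-Q7 (1.29-fold) and 0.31 for H2-M2 (1.24-fold). Mzb1 and Gsdmd were thus at least 2-fold above, as were 6.23% of all 54187 tested probes. A distance at least as high was found for 0.408% of tested probes for Mzb1, 1.28% for Gsdmd, 23.5% for H2-Q7 and 26.8% for H2-M2. In the scaling used for these levels, DIO array 3 stood above Ctrl array 2 by 0.09 for H2-M2, more than the larger spot SD of 0.03. For H2-Q7 it stood above by 0.02, within the larger spot SD of 0.03, so these arrays were not ordered for that gene. Whether DIO array 3 stays above Ctrl array 2 with other scalings was not tested. The class I distances depended on the scaling and were 0.74 for H2-Q7 and 0.69 for H2-M2 with quantile normalization. These distances were among the values that led to the choice of the genes.

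On DIO array 2, Mzb1 lay 2.22 below the mean of the other DIO arrays (4.65-fold lower), H2-Q7 0.37 below (1.29-fold) and H2-M2 0.40 below (1.32-fold). Gsdmd lay 0.12 above it. Mzb1 alone of the 4 was at least 2-fold below, as were 0.757% of tested probes. A level at least as far below was found for 0.0406% of tested probes for Mzb1, 11.1% for H2-Q7 and 9.14% for H2-M2. Both criteria together, at least 2-fold above on Ctrl array 2 and at least 2-fold below on DIO array 2, were met by 54 tested probes (0.0997%). Mzb1 was the only named gene among them, and the other 53 have no name here. Counting direction without regard to size, 3 of the 4 genes lay above on Ctrl array 2 and below on DIO array 2, against 21.9% of tested probes. Gsdmd was the gene that lay on the other side on DIO array 2. These distances, too, were among the values that led to the choice of the genes, so the shares beside them are no test. H2-Q7 and H2-M2 followed the same pattern over the arrays, so they do not count as separate cases.

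**Figure D2:**
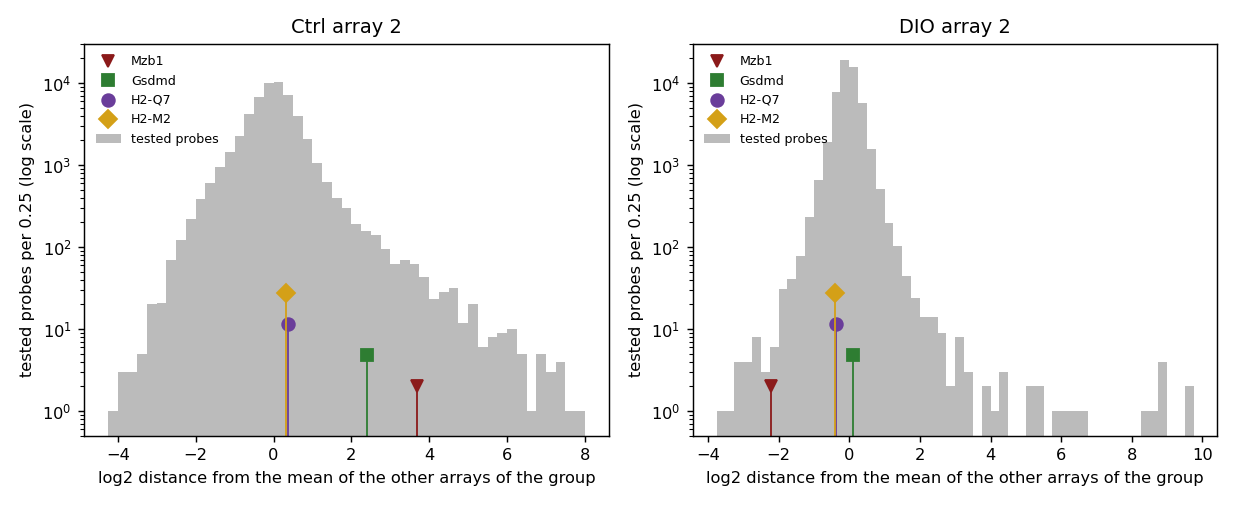
Log2 distance of Ctrl array 2 (left) and DIO array 2 (right) from the mean of the other 3 arrays of its group (horizontal axis), with the number of tested probes per 0.25 as grey bars (vertical axis, log scale) and Mzb1, Gsdmd, H2-Q7 and H2-M2 as marks, whose height has no meaning. On Ctrl array 2 Mzb1 lies at 3.70 and Gsdmd at 2.40 in the upper tail, and on DIO array 2 Mzb1 lies at -2.22 in the lower tail, while the class I genes lie between -0.40 and 0.37 on both.

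Ctrl array 2 differed from the other Ctrl arrays in many probes, with 7.11% of tested probes at least 2-fold below their mean beside the 6.23% above. The corresponding shares on DIO array 2 were 0.757% below and 0.816% above. Those of the other DIO arrays ran from 0.591% to 1.93% below and from 0.681% to 1.29% above. Markers of other cell types could be named for few lists. Of the 12 plasma and B cell markers Mzb1 alone could be named, so its levels have no second named marker beside them. Il2, a T cell cytokine and 1 of 13 T and NK cell markers, lay 0.41 below the other Ctrl arrays on Ctrl array 2 and 0.31 below the other DIO arrays on DIO array 2. Its levels were low, from -3.73 to -2.85. A distance at least as far below was found for 23.1% of tested probes on Ctrl array 2 and 14.4% on DIO array 2. Chgb, a protein of neuroendocrine granules, lay 1.90 above on Ctrl array 2 and 2.73 above on DIO array 2. Mbp, a myelin protein, lay 0.46 above on Ctrl array 2 and 0.68 above on DIO array 2. Cav2, a caveolin listed with fibroblast and endothelial markers, lay 0.29 above on Ctrl array 2 and 0.16 above on DIO array 2. None of these 4 markers passed between DIO and Ctrl (adjusted p = 0.774 to 0.850 in limma), and neither did any of the 54187 tested probes (0%). Their part in the levels of Mzb1, Gsdmd, H2-Q7 and H2-M2 was not tested. No listed marker could be named for macrophages, dendritic cells and granulocytes (12 genes), myoepithelial and basal cells (7 genes), adipocytes (7 genes) or skeletal muscle (6 genes).

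**Figure D3:**
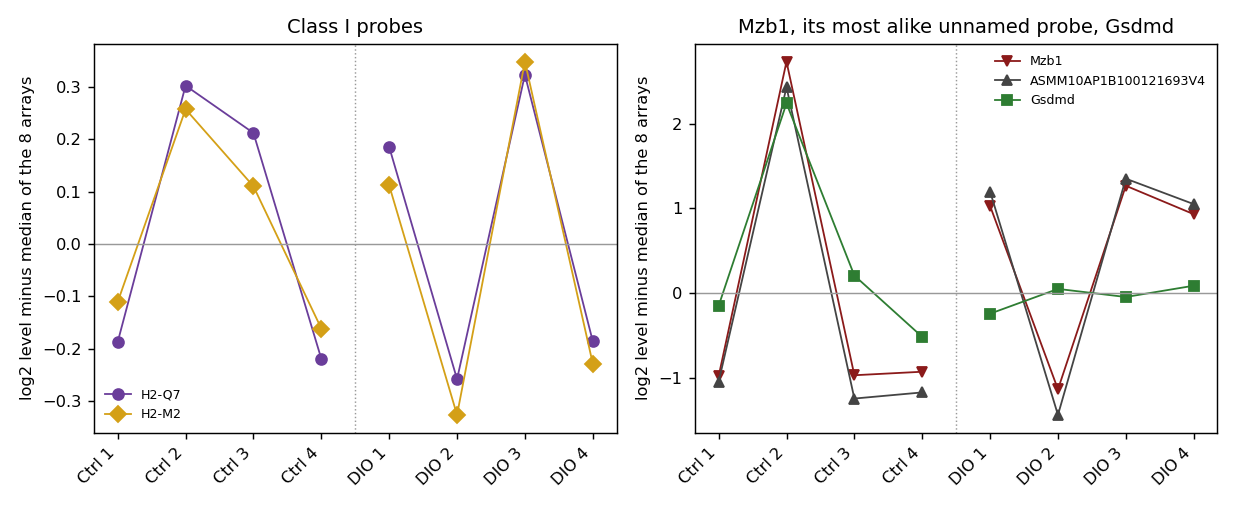
Log2 level of each array minus the median of the 8 arrays (vertical axis) for the class I probes (left) and for Mzb1, the unnamed probe most like it and Gsdmd (right), over Ctrl and DIO arrays 1 to 4 (horizontal axis). H2-Q7 and H2-M2 follow each other on all arrays, Mzb1 and the unnamed probe are high on Ctrl array 2 and on DIO arrays 1, 3 and 4, and Gsdmd is high on Ctrl array 2 alone.

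The likeness of patterns was described by Pearson's r of log2 levels over the 8 arrays, for each gene against the 43 other named genes tested. Arrays of a group share their diet, so these are descriptions and carry no p. H2-M2 was the most alike of all named genes to H2-Q7, with r = 0.966 (Spearman's rho 0.905) over 8 arrays and 0.958 over the 7 without Ctrl array 2. Next to it came the predicted gene Gm9789 (r = 0.698, and 0.840 without Ctrl array 2) and Gsta4, a glutathione transferase (r = 0.685 and 0.696). Tm9sf1, a membrane protein of the secretory route, ran most against H2-Q7 (r = -0.82, and -0.91 without Ctrl array 2). For H2-M2 the most alike after H2-Q7 were Gm9789 (r = 0.722) and Mzb1 (r = 0.642), and Tm9sf1 again ran most against it (r = -0.78).

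Among the other pairs, those with Gsdmd fell most without Ctrl array 2. Mzb1 and Gsdmd had r = 0.681 over 8 arrays and 0.05 over the 7 without Ctrl array 2. Gsdmd had r = 0.485 with H2-Q7 and 0.430 with H2-M2, and 0.238 and 0.062 without that array. Mzb1 with H2-Q7 had r = 0.654 (rho 0.786), and 0.536 without it, and Mzb1 with H2-M2 had r = 0.642 (rho 0.762), and 0.529 without it. Gamt, an enzyme of creatine synthesis, was the most alike to Mzb1 (r = 0.698, and 0.253 without that array) and to Gsdmd (r = 0.920 and 0.599). Bambi, a decoy receptor of TGF-beta signalling, had r = 0.903 with Gsdmd over 8 arrays and -0.05 over 7, and Apoe, a lipoprotein component, had 0.861 and 0.498. Cep41, a centrosomal protein, was the third most alike to Mzb1 (r = 0.660 and 0.202). Uhrf1bp1l, a lipid transfer protein, ran most against both, with r = -0.78 for Mzb1 and -0.95 for Gsdmd, and -0.51 and -0.41 without Ctrl array 2.

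Among 54089 unnamed probes, 7 had an r of at least 0.95 with Mzb1 over the 8 arrays, and 3 of these also did without Ctrl array 2. The most alike was ASMM10AP1B100121693V4, with r = 0.992, and 0.998 without Ctrl array 2. That probe was measured at 0.86, 4.34, 0.66 and 0.73 on Ctrl arrays 1 to 4, and at 3.11, 0.47, 3.26 and 2.96 on DIO arrays 1 to 4. It was high on the same 4 arrays as Mzb1 and low on the same other 4. The second was ASMM10LNC1A100010635V4 (r = 0.988), at -0.36 on Ctrl array 2 and between -7.39 and -3.37 elsewhere. On Ctrl arrays 1, 3 and 4 and on DIO array 2 it lay between -7.39 and -6.53. A tested probe need be well above background on only 4 arrays. Whether the lowest levels of this probe were at the floor, and what part they had in its r, was not tested. The count of unnamed probes at that likeness was 978 for Gsdmd, 13 for H2-Q7 and 9 for H2-M2, of which 8, 13 and 7 also had it without Ctrl array 2. Over the 7 arrays without it the counts were 21 for Mzb1, 31 for Gsdmd, 190 for H2-Q7 and 83 for H2-M2. No other array was left out of these counts for comparison, and a high r is reached more easily over fewer arrays. Whether the change belongs to Ctrl array 2 in particular was therefore not tested.

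Between DIO and Ctrl, none of the 4 genes passed an adjusted p of 0.05 in limma, adjusted over all tested probes, and neither did any of the 54187 probes (0%). At an unadjusted p below 0.05, limma found 0 of the 4 genes and 2441 probes (4.5%). Mzb1 averaged -0.15 ± 1.85 over the Ctrl arrays and 0.41 ± 1.12 over the DIO arrays (SD, n = 4 each), a log2 difference of 0.56 (SE 0.90, adjusted p = 0.864 in limma). Of the DIO arrays, 3 of 4 lay above the Ctrl mean. Gsdmd averaged -0.32 ± 1.23 and -0.80 ± 0.15 (SD, n = 4 each), a difference of -0.48 (95% interval -1.67 to 0.70, adjusted p = 0.799 in limma). All 4 DIO arrays lay below that Ctrl mean, which Ctrl array 2 raised. The intervals of both genes reach beyond 2-fold, so a difference of that size is within what these arrays allow.

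The class I genes had narrower intervals. H2-Q7 averaged 6.41 ± 0.27 over the Ctrl arrays and 6.40 ± 0.28 over the DIO arrays (SD, n = 4 each), a difference of -0.01 (95% interval -0.44 to 0.41, adjusted p = 0.989 in limma). H2-M2 averaged 5.62 ± 0.20 and 5.57 ± 0.31 (SD, n = 4 each), a difference of -0.05 (95% interval -0.46 to 0.36, adjusted p = 0.949 in limma). In fold, the intervals ran from 0.739 to 1.33 for H2-Q7 and from 0.729 to 1.28 for H2-M2, and for each gene 2 of 4 DIO arrays lay below the Ctrl mean. With quantile normalization the differences were -0.22 for H2-Q7 and -0.23 for H2-M2. A two-sided exact permutation test, with 70 ways to assign the arrays, gave p = 0.514 for Mzb1, 0.714 for Gsdmd, 0.886 for H2-Q7 and 0.800 for H2-M2, where the smallest possible is 0.0286. The median difference was -0.03 over the 4 genes and -0.02 over all tested probes. Since the labels do not name separate animals, the p-values rest on the spread from sample to sample, part of which may be technical.

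**Figure D4:**
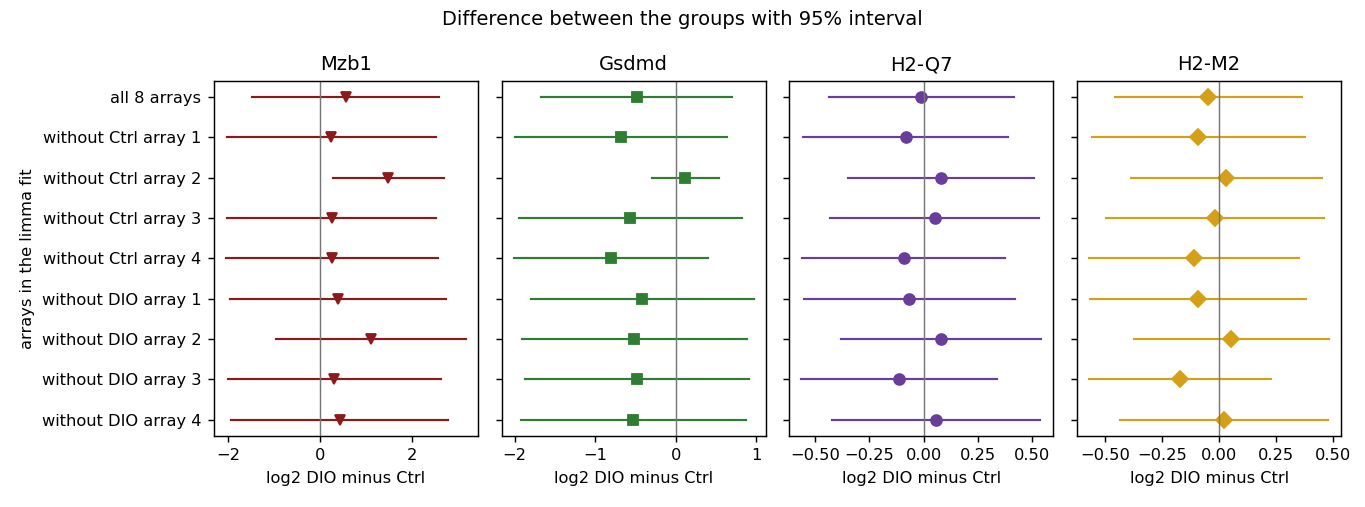
Log2 difference DIO minus Ctrl (horizontal axis, a different range in each panel) with its 95% interval from limma, with all 8 arrays and with each array left out in turn (rows). Every interval spans 0 except that of Mzb1 without Ctrl array 2 (0.27 to 2.70), and the difference of Gsdmd lies above 0 in that fit alone. The genes were chosen with their levels on that array known, so that fit is no test of diet.

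Leaving out Ctrl array 2 turned the difference of Gsdmd to 0.12 (95% interval -0.30 to 0.53), that of H2-Q7 to 0.08 and that of H2-M2 to 0.03. The Mzb1 difference became 1.48 (adjusted p = 0.941 in limma). The genes were chosen with their levels on Ctrl array 2 known, so these changes are no evidence of a difference between diets. The sign also turned without DIO array 2 for both class I genes, without DIO array 4 for both, and without Ctrl array 3 for H2-Q7. With array weights from limma, in which Ctrl array 2 had 0.215 and the others 1.03 to 1.48, the difference was 1.29 for Mzb1 and -0.06 for Gsdmd. Without both arrays numbered 2, Mzb1 differed by 2.04 (95% interval 1.73 to 2.35, adjusted p = 0.0300 in limma), or 4.11-fold. In that fit 2 of 54187 probes passed, Mzb1 and the unnamed probe most like it (difference 2.36). Over the alternatives tried for Mzb1, the adjusted p lay between 0.0300 and 0.973. Those arrays were left out because Mzb1 itself stood apart on them, so this value describes the remaining 6 arrays and is no evidence of a difference between diets.

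Of the gene lists drawn up around these genes, few members could be named. Of 29 plasma and B cell genes 1 was measured (Mzb1), of 35 pyroptosis and inflammasome genes 1 (Gsdmd), and of 37 genes of class I and antigen presentation 2 (H2-Q7 and H2-M2). None of them passed in either direction in limma, adjusted over all tested probes, and neither did any of the 54187 tested probes (0%). The remaining listed genes were not identified among the unnamed probes, and antibody secretion, pyroptosis and antigen presentation as a whole were not assessed. All 8 arrays carry the same scan time. The header identifies each array by a pair of numbers, the first of which is 1 for every Ctrl and 2 for every DIO array, while the second equals the replicate number. Diet and whatever the first number stands for cannot be told apart.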

How the data were processed

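The authors deposited 1 Agilent Feature Extraction file per array (version 11.0.1.1, per the submitters' processing notes). Background was subtracted from the deposited processed intensity and spatial trends were removed within each array, per the file headers. The deposited median intensities of spot and local background are uncorrected, and other deposited columns are flags of 0 or 1. Any normalization between arrays was not given in the sources used here.

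Log2 of the processed signal minus the 75th percentile of the array over non-control spots was averaged over spots, without outlier spots. Probes well above background (at least 0.5 of their spots) on at least 4 arrays and measured on at least 3 per group were tested (54187) with limma 3.58.1 in R 4.3.3 (lmFit, eBayes, Benjamini-Hochberg, two-sided). Symbols came from RefSeq GRCm38.p6 by accession (46 of 47 matched). The header names another build for the array design, so gene coordinates are not given apart from promoters. Promoters were aligned with Biopython 1.88, and plots were made with matplotlib 3.10.9. The limma step was tested on simulated data. The genes and lists were chosen with earlier results of these data known. Besides the 4 genes, the text names for each of them the 3 named genes with the highest and the 1 with the lowest r, listed genes with a tested probe, and the 2 unnamed probes most like Mzb1.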

Additional observations from a re-analysis of the deposited data

Results flagged for a closer look

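For Mzb1 in Ctrl, array 2 stood at 2.62 while the other 3 arrays lay between -1.10 and -1.05. For Mzb1 in DIO, array 2 stood at -1.25 and the others between 0.82 and 1.15. Both values were among those that led to the choice of Mzb1, so they are repeated here as a description, with no test. Chgb in DIO stood at 0.29 on array 2, above the others between -2.65 and -2.16. Its gap exceeded Dixon's 95% critical value for 4 arrays, which chance exceeds in about 1 in 20 groups. These were the groups that stood apart among 32 groups of 4 arrays looked at for 16 genes. No chance rate is set against that number, since several of the genes were named for their likeness to Mzb1, Gsdmd, H2-Q7 or H2-M2 over the same arrays. The cause was not tested.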

How the results depend on the processing

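Over 21 alternatives the difference of Mzb1 kept its sign in 21, that of Gsdmd in 18, of H2-M2 in 16 and of H2-Q7 in 15. Changing only the probe filter, the replicate block or the eBayes settings left each difference as it was, so those alternatives could not turn a sign. The H2-Q7 difference was -0.01, so its sign says little. When an array was left out in turn, differences ranged from 0.25 to 1.48 for Mzb1, -0.81 to 0.12 for Gsdmd, -0.11 to 0.081 for H2-Q7 and -0.17 to 0.053 for H2-M2. Without both arrays numbered 2 they were 2.04 for Mzb1, 0.086 for Gsdmd, 0.17 for H2-Q7 and 0.13 for H2-M2, and 2 probes passed in limma, against 0 under each other alternative. Those 2 probes were Mzb1 and the unnamed probe most like it. Since the arrays were left out because Mzb1 stood apart on them, this is no evidence of a difference between diets. Array weights gave 1.29 for Mzb1, -0.06 for Gsdmd, 0.046 for H2-Q7 and 0.012 for H2-M2. Quantile normalization without Ctrl array 2 gave 0.13 for Gsdmd. Without Ctrl array 2 the exact permutation p was 0.143 for Mzb1, and, with the sign turned, 0.600 for Gsdmd, 0.743 for H2-Q7 and 0.886 for H2-M2. The levels on that array were known when the genes were chosen, so these p-values only describe the remaining arrays. The distance of Ctrl array 2 was 0.74 for H2-Q7 and 0.69 for H2-M2 with quantile, and 0.74 and 0.64 with cyclic loess normalization. The cause was not tested.

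At an unadjusted p below 0.05 limma counted 2441 probes, 4522 with the replicate number as a block, 4396 without Ctrl array 3, 1321 without DIO array 1 and 1613 without DIO array 3. Same-numbered arrays deviated together with r from 0.06 to 0.30 across probes, and 7 of 8 arrays were most alike to the array of their own number; this did not reach 0.1 for every number, so the samples were not treated as paired. The replicate number is also the second number of the header's array identifier. With that block the differences were unchanged at 0.56, -0.48, -0.01 and -0.05, and adjusted p was 0.692 to 0.986 in limma.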
